A study of Arabidopsis thaliana with 9 samples.

Results

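GIGANTEA (GI, locus AT1G22770) was described on the arrays of germinating Arabidopsis thaliana seeds. The platform annotation named 1 probe set for it. In all, 13286 genes with a matched locus had a probe set of their own. The filter on dim signals was passed by 8875 genes, GI among them, counted with any that had no matched locus. GI was chosen by its log2 signals on these same arrays, as 1 of the 8 named genes that passed as lower in mARF10 than in ARF10 seeds (with unnamed ones, 0.0942% of tested probe sets). Its levels and differences are therefore a description and carry no test. That call was lost without any 1 of the ARF10 or mARF10 arrays (6 of 9 arrays) and in a linear model without moderation. It was kept without any 1 of the Col-0 arrays, which do not enter the difference itself.

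The GI protein is a large plant-specific protein of the circadian clock, and its transcript normally peaks towards the end of the day. It stabilises the blue-light receptor ZEITLUPE and, with the related receptor FKF1, removes the CDF repressors of CONSTANS, which in long days lets the florigen gene FT be expressed. GI also takes part in light responses of seedlings, and it binds SPINDLY (SPY), a negative regulator of gibberellin signalling, the hormone pathway that promotes germination.

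The 9 arrays held 3 genotypes with 3 independent biological replicates each, and each sample combined 3 seed lots. Col-0 seeds were wild type and held no transgene. In ARF10 seeds a transgene expressed AUXIN RESPONSE FACTOR10 under its own upstream region of 3 kb, with the coding region of 2.3 kb fused to green fluorescent protein. In mARF10 seeds the transgene had 4 mutations where microRNA160, which normally limits the ARF10 transcript, binds. Both transgenes were added to the plants' own ARF10 gene, and the labels do not say how many independent lines of each were used. Seeds of every genotype were kept on wet filter paper for 3 days at 4 °C in darkness, then for 22 h at 22 °C in light, and whole seeds were extracted, so less GI RNA per cell and fewer cells with GI RNA cannot be told apart. Each genotype was sampled at 1 time, so the level of GI at other hours of the day was not measured.

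The log2 signal of GI was at 7.36, 7.35 and 7.51 on the Col-0 arrays (replicates 1 to 3), at 7.40, 7.41 and 7.43 on the ARF10 arrays, and at 7.00, 7.00 and 6.89 on the mARF10 arrays. Every mARF10 array lay below every Col-0 and ARF10 array, while the Col-0 and ARF10 arrays overlapped, with the ARF10 arrays inside the Col-0 range. Arrays did not overlap in 22.3% of tested probe sets between mARF10 and ARF10, in 12.4% between mARF10 and Col-0 and in 9.2% between ARF10 and Col-0; as GI was chosen on these values, nothing is read from this. The means were 7.41 ± 0.09 in Col-0, 7.41 ± 0.01 in ARF10 and 6.97 ± 0.07 in mARF10 (SD, n = 3 arrays each). In order of level the genotypes were mARF10, then Col-0 and ARF10, and the last pair did not differ beyond their spread.

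**Figure D1:**
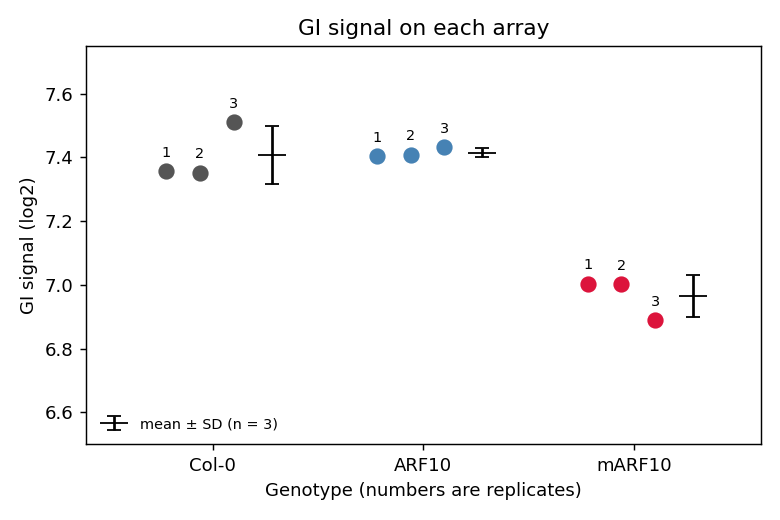
Each point is the log2 signal of GI on 1 array, numbered by replicate, with the mean ± SD of each genotype (n = 3) beside it. The mARF10 arrays sit between 6.89 and 7.00, below the Col-0 and ARF10 arrays, which lie between 7.35 and 7.51.

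The log2 difference of GI was -0.45 (SE 0.07) between mARF10 and ARF10 and -0.44 (SE 0.07) between mARF10 and Col-0. On a linear scale these are 0.732 and 0.737 times the level in ARF10 and Col-0 seeds. Both comparisons use the same mARF10 arrays and so are not independent of each other. GI did not pass between mARF10 and Col-0, where 0.0% of tested probe sets did. Of the settings run, only weighting arrays by their scatter called it there, along with others (82 probe sets in all). Between ARF10 and Col-0 the difference was 0.01 (SE 0.07), with a median of 0.01 over all tested probe sets.

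Among the 15922 tested probe sets, 99 had a lower difference than GI between mARF10 and ARF10, and 119 between mARF10 and Col-0. Differences larger in size than that of GI, in either direction, were found in 3.46% of probe sets between mARF10 and ARF10 and in 3.27% between mARF10 and Col-0. The SD of GI within genotypes, pooled over the 3 groups, was 0.065, against a median of 0.124 over tested probe sets, and 9.94% of them had a smaller one. A choice by p-value favours probe sets with little scatter, so that share is not a finding.

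**Figure D2:**
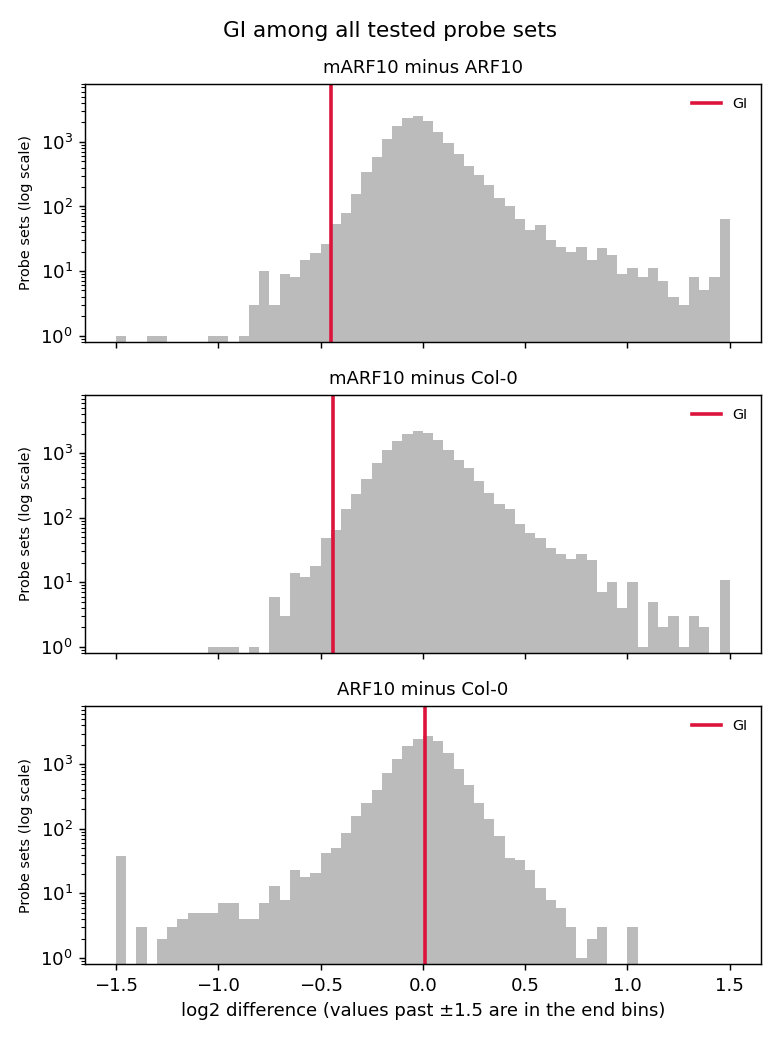
Histograms show the log2 differences of all 15922 tested probe sets in 3 comparisons, with counts on a log scale and values past 1.5 in either direction collected in the end bins; the vertical line marks GI. GI lies in the lower tail in both comparisons with mARF10 (-0.45 and -0.44) and at the centre between ARF10 and Col-0 (0.01).

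Signals with all 3 mARF10 arrays below the 6 other arrays were found for 727 of the 15922 tested probe sets (4.57%), and 475 (2.98%) had all mARF10 arrays above. For GI the gap between the highest mARF10 array (7.00) and the lowest of the 6 others (7.35) was 0.35. It was the third widest gap of this kind, after an unnamed probe set (0.51) and AT4G20320 (0.48), both named after their values were seen. In the opposite direction 20 probe sets had a gap at least as wide.

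Col-0 replicate 2 stood apart from the other 8 arrays on the first principal component (41.3 against -17.3 to 5.87). GI was at 7.35 on that array and 7.36 on Col-0 replicate 1. Without Col-0 replicate 2, GI differed by -0.47 between mARF10 and Col-0 and by -0.02 between ARF10 and Col-0. Over every left-out array the difference of GI ran from -0.47 to -0.41 between mARF10 and ARF10 and from -0.47 to -0.39 between mARF10 and Col-0.

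The tissue was checked with genes of the seed. The annotation named 2 of 16 genes of storage protein, oil bodies and late embryogenesis, and 4 of 8 genes of storage oil use after imbibition, and these 6 passed the filter. The glyoxylate cycle gene ICL (isocitrate lyase), which serves the use of storage oil, was at 14.63 to 14.78 on the 9 arrays. Of 7 flower and root hair genes, the annotation named EXPA7 and EXPA18, expansins of root hairs, at 6.28 to 6.63 and 5.95 to 6.08. Whether such low signals stand above background was not assessed.

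Of the seed markers, the oleosin gene OLEO3 (a coat protein of oil bodies) had log2 signals of 9.71, 9.51 and 9.59 in Col-0, 9.37, 9.24 and 9.33 in ARF10, and 10.58, 10.11 and 10.51 in mARF10 seeds. Every mARF10 array was above the 6 others, the reverse of GI, and r with GI over the 9 arrays was -0.92. OLEO3 passed between mARF10 and ARF10 (difference 1.09, limma adjusted p = 0.0120) and not between mARF10 and Col-0 (0.80, adjusted p = 0.185). PAP85, a vicilin-type gene, ran from 8.14 to 10.8 in Col-0, from 6.57 to 7.75 in ARF10 and from 9.65 to 11.4 in mARF10 seeds (r = -0.54). The mean of both was 8.92 to 10.2 on the Col-0 arrays, 7.95 to 8.49 on the ARF10 arrays and 9.88 to 11.0 on the mARF10 arrays.

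The 4 genes of storage oil use did not share 1 pattern, and none passed between any 2 genotypes. SDP1, a lipase gene of oil breakdown, was at 10.05, 10.23 and 10.19 in Col-0, 10.06, 10.23 and 10.13 in ARF10, and 9.92, 9.86 and 9.98 in mARF10 seeds. Every mARF10 array of SDP1 was below the 6 others, as in GI (r = 0.81), with differences of -0.22 from ARF10 (limma adjusted p = 0.355) and -0.24 from Col-0 (adjusted p = 0.418). AIM1, of fatty acid beta-oxidation, was higher on every mARF10 than on every ARF10 array (difference 0.21, limma adjusted p = 0.467). Arrays of mARF10 and ARF10 thus did not overlap in 2 of the 4 genes, against 22.3% of tested probe sets. ICL and PPDK arrays overlapped in every comparison. The mean of the 4 genes was 11.6 to 11.8 on the 9 arrays, with the genotypes overlapping.

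RNA quality was read from the log2 difference between the 3' and 5' ends of control transcripts. For GAPDH it was 0.27 to 0.61 in Col-0, 0.25 to 0.37 in ARF10 and 0.14 to 0.60 in mARF10 seeds. Over the 9 arrays it was 1.54 to 1.77 for ubiquitin and 2.34 to 2.86 for actin. The 3' signal was thus the higher on every array, most of all for actin. The genotypes overlapped in each of the 3 controls. This compares the genotypes and does not say how intact the RNA was. The part of seed marker RNA in the difference of GI was not tested.

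Other clock, flowering and light genes were taken from 7 lists of 120 genes in all. The annotation named 14 of them and 11 were tested. In a linear model over all probe sets (limma, Benjamini-Hochberg adjustment, threshold 0.05), 0 of the 11 passed between mARF10 and ARF10, where 0.408% of all tested probe sets passed. Between mARF10 and Col-0, and between ARF10 and Col-0, 0 of 11 passed and 0.0% of all tested probe sets did. Unadjusted p was under 0.05 for 1 of 11 between mARF10 and ARF10 (10.9% of all tested probe sets), for 1 between mARF10 and Col-0 (10.7%) and for 0 between ARF10 and Col-0 (4.64%). A linear model without moderation called 0 of all 15922 tested probe sets in each comparison, so its 0 of 11 says nothing of the list. Unadjusted it gave 0, 1 and 0 of 11, against 1658, 1492 and 729 of all tested probe sets.

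Between mARF10 and ARF10, 5 of the 11 differences were positive and 6 negative, with a median of -0.04 against -0.02 over all tested probe sets. They ran from -0.20 to 0.41, so 0 of 11 were larger in size than that of GI, against 3.46% of all tested probe sets. Between mARF10 and Col-0 the median was 0.03 against -0.01. There 1 of 11, HYH, had a larger difference than GI, against 3.27% of all tested probe sets. GI was chosen on these values and the list is short, so nothing is read from these counts. Between ARF10 and Col-0 the median was 0.01 against 0.01. Many central clock genes, such as CCA1, LHY and TOC1, were not analysed here, as the naming table used does not list them.

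**Figure D3:**
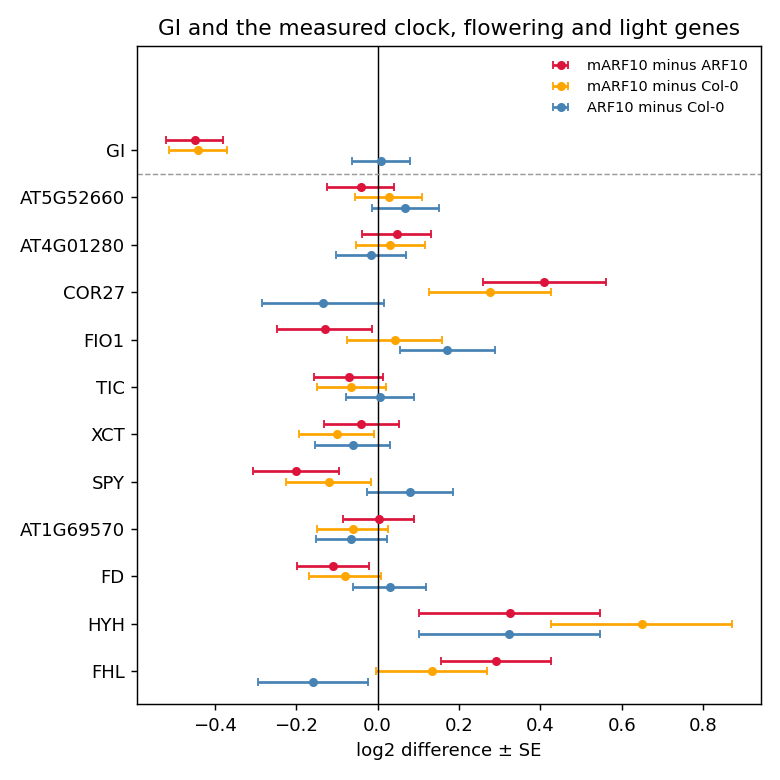
Points give the log2 difference of GI (top row) and of the 11 tested list genes in 3 comparisons, and bars the limma SE. GI lies at -0.45 and -0.44 in the comparisons with mARF10; the largest positive differences are those of HYH (0.65) and COR27 (0.41), and none of the 11 passed.

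Among evening-phased genes, the group to which GI belongs, COR27 was tested. It encodes a small protein that represses clock genes and is induced by cold. COR27 was at 6.22, 5.84 and 5.80 in Col-0, 5.74, 5.94 and 5.76 in ARF10, and 6.39, 5.93 and 6.36 in mARF10 seeds. mARF10 replicates 1 and 3 were the highest arrays, while mARF10 replicate 2 lay among those of the other genotypes. These signals were as low as those of the root hair genes EXPA7 and EXPA18. Whether they stand above background was not assessed. The difference was 0.41 (SE 0.15, limma adjusted p = 0.364) between mARF10 and ARF10, opposite in sign to that of GI, and 0.28 (adjusted p = 0.522) between mARF10 and Col-0. With arrays weighted by their scatter, COR27 passed between mARF10 and ARF10 (difference 0.51, adjusted p = 0.0283), where 784 of all tested probe sets passed.

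Of the morning-phased list, AT5G52660 and AT4G01280 were measured. AT5G52660 was at 7.77 ± 0.12 in Col-0, 7.84 ± 0.05 in ARF10 and 7.80 ± 0.09 in mARF10 seeds (SD, n = 3). AT4G01280 was at 7.75 ± 0.13, 7.74 ± 0.06 and 7.78 ± 0.09 in the same order. Their arrays overlapped in every comparison, and adjusted p by limma was 0.886 or higher.

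Further regulators of the clock were FIO1, TIC and XCT, whose loss in mutants alters the period or amplitude of the clock. FIO1 (FIONA1) was at 7.89 ± 0.07 in Col-0, 8.06 ± 0.18 in ARF10 and 7.93 ± 0.19 in mARF10 seeds. TIC (TIME FOR COFFEE) was at 9.02 ± 0.13, 9.03 ± 0.05 and 8.96 ± 0.09, and XCT (XAP5 CIRCADIAN TIMEKEEPER) at 8.60 ± 0.18, 8.54 ± 0.00 and 8.50 ± 0.06. XCT had an identical deposited value on every ARF10 array, so its SD of 0.00 there is a tie and not a measured spread. All 3 genes had negative differences between mARF10 and ARF10, from -0.13 to -0.04, with overlapping arrays and limma adjusted p of 0.746 or higher.

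Of the proteins that bind GI or act on it, SPY was the 1 gene of 15 named. SPY was at 9.44, 9.55 and 9.67 in Col-0, 9.55, 9.66 and 9.69 in ARF10, and 9.62, 9.24 and 9.43 in mARF10 seeds. mARF10 replicate 1 lay among the arrays of the other genotypes, so the groups overlapped. The difference was -0.20 (SE 0.11, limma adjusted p = 0.522) between mARF10 and ARF10 and -0.12 (adjusted p = 0.662) between mARF10 and Col-0. Over the 9 arrays SPY had the highest correlation with GI among the 14 named genes (r = 0.61), and COR27 had the lowest (r = -0.73). Among 8874 other tested genes, 5% had an r above 0.70 and 5% an r below -0.67. SPY lay inside these limits and COR27 beyond the lower one. Both are the extremes of 14 genes, so nothing is read from them.

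In the photoperiodic flowering list, AT1G69570 and FD were tested. AT1G69570 is CDF5, a gene of the CDF family. FD encodes the bZIP factor that acts with FT at the shoot apex. FD was at 5.90 ± 0.16 in Col-0, 5.93 ± 0.07 in ARF10 and 5.82 ± 0.06 in mARF10 seeds, a difference of -0.11 (limma adjusted p = 0.713) between mARF10 and ARF10. AT1G69570 was at 6.29 ± 0.12, 6.23 ± 0.10 and 6.23 ± 0.07, a difference of 0.00 (adjusted p = 0.994). FD and AT1G69570 too were as low as EXPA7 and EXPA18, and their detection was not assessed. AGL24, a MADS-box flowering gene, was below the filter and was not tested; its means were 5.23, 5.32 and 5.30.

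Of the light signalling list, HYH and FHL were tested. HYH encodes a bZIP factor related to HY5, which promotes greening and seedling light responses. HYH was at 7.61, 6.72 and 7.51 in Col-0, 7.76, 7.38 and 7.67 in ARF10, and 7.70, 8.03 and 8.05 in mARF10 seeds. Every mARF10 array lay above every Col-0 array, which 12.4% of all tested probe sets showed in either direction, and mARF10 and ARF10 arrays overlapped. The difference was 0.65 (SE 0.22, limma adjusted p = 0.418) between mARF10 and Col-0 and 0.33 (adjusted p = 0.643) between mARF10 and ARF10. The lowest array was Col-0 replicate 2, and without it the difference between mARF10 and Col-0 was 0.37 (adjusted p = 0.513).

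FHL encodes a protein that carries phytochrome A into the nucleus. FHL was at 6.83, 6.78 and 6.37 in Col-0, 6.54, 6.37 and 6.60 in ARF10, and 6.62, 6.94 and 6.82 in mARF10 seeds. Every mARF10 array lay above every ARF10 array, as 22.3% of tested probe sets showed in either direction. The difference was 0.29 (SE 0.14, limma adjusted p = 0.474) between mARF10 and ARF10 and 0.13 (adjusted p = 0.708) between mARF10 and Col-0. Of the clock output genes COR15A, a cold-induced chloroplast protein gene, was named; it was below the filter, at means of 5.26, 5.25 and 5.23, and was not tested.

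The genes with a pattern most like that of GI were sought among 8874 other tested genes by Pearson correlation of log2 signals over the 9 arrays. The 9 arrays fall into 3 genotypes, and a gene that differs by genotype as GI does will correlate with it, so these values are a description. The median r was 0.05, and 5% of genes lay above 0.70. An r of at least 0.9 was reached by 23 genes (0.259%) and an r of at most -0.9 by 22 (0.248%).

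The 10 genes with the highest r had values from 0.92 to 0.96. In all 10 every mARF10 array lay below the 6 other arrays, as in 4.57% of tested probe sets. GI has this step and they were picked by likeness to GI, so nothing is read from that count. AT3G23940 (r = 0.96) was at 11.45 ± 0.08 in Col-0, 11.46 ± 0.05 in ARF10 and 11.00 ± 0.07 in mARF10 seeds. Its differences, -0.46 from ARF10 and -0.45 from Col-0, were close to those of GI in size. AT5G56730 (r = 0.96) was at 8.03 ± 0.09, 8.05 ± 0.04 and 7.67 ± 0.04 in the same order, and AT3G14120 (r = 0.94) at 9.47 ± 0.04, 9.53 ± 0.04 and 9.23 ± 0.01. AT2G24530, AT1G34380 and AT3G19340 followed, with r from 0.93 to 0.94 and smaller differences of -0.18, -0.21 and -0.14 between mARF10 and ARF10. AT1G71870 (r = 0.93) differed by -0.63.

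SAPX, SIR and EXPB1 completed the 10. SAPX, which encodes the stromal ascorbate peroxidase of the plastid, was at 10.49 ± 0.17 in Col-0, 10.75 ± 0.05 in ARF10 and 9.98 ± 0.18 in mARF10 seeds (r = 0.93). SIR, which encodes sulfite reductase of sulfur assimilation, was at 10.38 ± 0.15, 10.68 ± 0.10 and 9.82 ± 0.13 (r = 0.92). For EXPB1, a beta-expansin that loosens cell walls, the means were 7.27 ± 0.04, 7.34 ± 0.08 and 6.97 ± 0.14 (r = 0.93). SAPX and SIR had higher means in ARF10 than in Col-0, by 0.25 and 0.30, which GI (0.01) did not.

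The likeness lay mainly in the step between mARF10 and the 6 other arrays. When each gene was taken as its deviation from the genotype means, the r of these 10 with GI ran from 0.14 to 0.72. Spearman's rho over the 9 arrays was 0.63 to 0.87. The list changed with the arrays used: 3 of the 10 genes remained without Col-0 replicate 2, without mARF10 replicate 1 or without mARF10 replicate 3. Without Col-0 replicate 1, Col-0 replicate 3, ARF10 replicate 3 or mARF10 replicate 2, 6 of the 10 remained. By rank correlation 0 of the 10 were again among the top 10.

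The 5 genes with the lowest r lay between -0.96 and -0.94. In all 5 every mARF10 array was above the 6 other arrays, as in 2.98% of tested probe sets. This too goes with how they were picked. HTB2, which encodes a histone H2B, was at 10.06 ± 0.11 in Col-0, 9.90 ± 0.03 in ARF10 and 10.53 ± 0.13 in mARF10 seeds (r = -0.96). PDF1.4, of the plant defensin family, was at 6.24 ± 0.23, 6.18 ± 0.16 and 6.75 ± 0.11 (r = -0.94). The others were AT4G17940, AT1G02816 and AT2G04700, with differences of 0.43, 0.32 and 0.26 between mARF10 and ARF10. Within genotypes the r of these 5 with GI ran from -0.79 to -0.70. The choice of the 5 used the same deviations, so this is not a separate check.

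**Figure D4:**
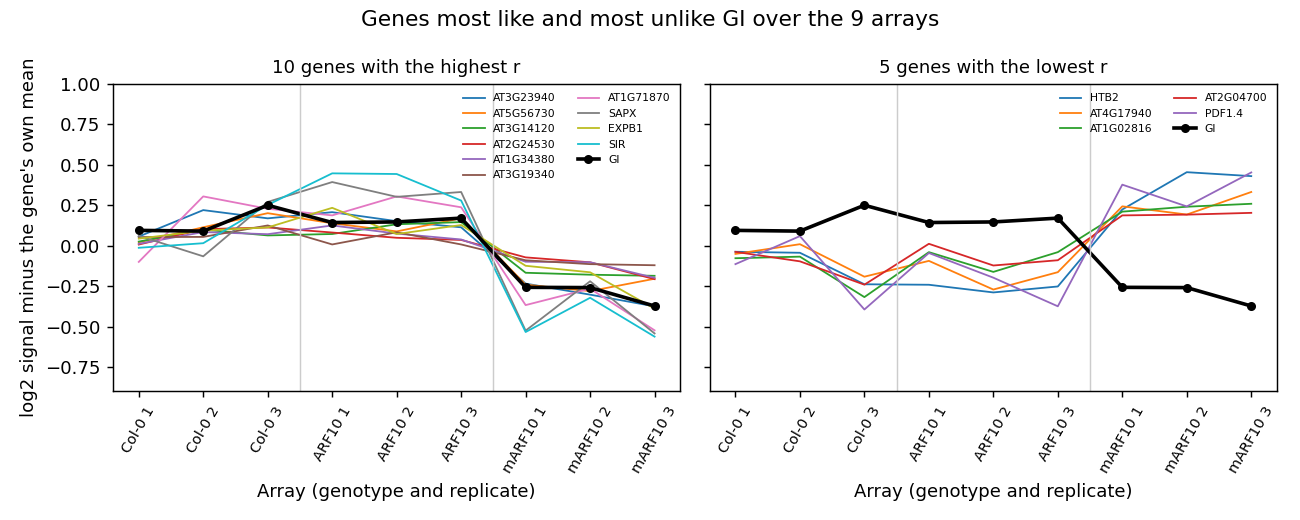
Lines show the log2 signal on each of the 9 arrays after subtracting the gene's own mean, for the 10 genes with the highest r with GI (left) and the 5 with the lowest (right), with GI as the thick black line in both panels. The 10 genes lie lower on the mARF10 arrays, as GI does, with the widest differences from ARF10 in SIR (-0.86) and SAPX (-0.77), and the 5 genes lie higher there.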

How the data were processed

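The authors deposited a table of log2 signals with a row per probe set. How probes were summarised and normalized, and the base of the logarithm, is not given in the sources used here. The values, from 3.70 to 14.78, stay within what base 2 allows for a scanner. Array medians lay between 7.06 and 7.11, so no further normalization was applied. Of 22810 probe sets 64 were controls. Testing was limited to the 15922 whose mean over all arrays reached the 30th percentile (5.72); GI had a mean of 7.26. Names came from the platform annotation (13513 probe sets with 1 gene, of which 13436 matched a locus in the RefSeq table of TAIR10.1). For genes with several probe sets the one with the highest mean was used.

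limma 3.58.1 in R 4.3.3 fitted 1 mean per genotype over the 9 arrays, with eBayes and Benjamini-Hochberg adjustment over the 15922 probe sets, 2-sided. The function was tested on simulated data. GI, the lists and the tests were chosen with earlier results of these data known. Named genes were GI, up to 4 measured genes per list by the smallest F-test p, and the 10 highest and 5 lowest correlations with GI. The number of arrays limits the precision. Scanner files were not used, so detection was not assessed. Replicate numbers were checked for pairing. Deviations of same-numbered arrays correlated from -0.17 to 0.49, and 2 of 9 pairs were below 0. Those of arrays with different numbers ran from -0.65 to 0.61, most of them below 0. The main fit did not treat the numbers as pairs, and a fit with them as a block is given below. Whether arrays with the same number share an effect was not tested.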

Additional observations from a re-analysis of the deposited data

How the results depend on the processing

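The differences of GI moved by less than its SD within genotypes in the alternatives where they were compared. With quantile normalization they were -0.47, -0.43 and 0.04 for mARF10 against ARF10, mARF10 against Col-0 and ARF10 against Col-0. Median centring gave -0.46, -0.43 and 0.03. Leaving out each array in turn gave -0.47 to -0.41, -0.47 to -0.39 and -0.02 to 0.06. The differences of GI with array weights were not compared. With the replicate number as a block the differences of GI (-0.45, -0.44 and 0.01) could not change, as each genotype holds every number once. Only their SE could, and it was 0.08 against 0.07. The count of calls over all probe sets was then 70, 0 and 0 against 65, 0 and 0. Unadjusted limma p was under 0.05 for 2184, 2344 and 1157 probe sets, against 1741, 1697 and 739 without the block. Not every array correlated best with its own number. The call of GI between mARF10 and ARF10 was lost under the block, without moderation and without each ARF10 or mARF10 array. It was kept under the other 8 settings and without each Col-0 array. Of these, the floor at 4 leaves the signals of GI as they are. Leaving out a Col-0 array leaves this difference of GI as it is and can change only its SE and the adjustment. Between mARF10 and Col-0 GI was called with array weights alone. The count of list genes called stayed at 0 in each comparison, except for COR27 with array weights (1 of 11). Over all probe sets, calls between mARF10 and ARF10 rose to 784 with array weights and 397 with the arrays of both genotypes alone, and were 0 without moderation. Leaving out 1 array gave 1 to 267, with the highest counts without Col-0 replicate 2 (267) and Col-0 replicate 1 (173). Any left-out ARF10 array (5, 3 and 1 for replicates 1 to 3) or mARF10 array (2, 27 and 10) lowered the count; these fits have fewer arrays of the genotypes compared. Between mARF10 and Col-0 it was 82 with array weights and 0 to 14 with 1 array left out (14, 11 and 1 without Col-0 replicates 1, 2 and 3, and 5 without mARF10 replicate 2). Between ARF10 and Col-0 it was 1 with array weights, with quantile normalization or with eBayes made robust and trended, and 0 to 19 with 1 array left out (19 and 1 without Col-0 replicates 1 and 3). Apart from the lower array numbers, the cause of these shifts was not tested. Of the 10 genes most like GI, 0 were kept by Spearman correlation, 0 by deviations from genotype means and 3 to 9 with 1 array left out, while 7 were kept with quantile normalization and 9 with no filter. The planned search for motifs in promoters was not run.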

Other observations

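The genes next to GI on its chromosome, 5 on each side in the gene order of TAIR10.1, were looked at after the values of GI were known. The annotation named 7 of these 10 genes and 5 were tested (AT1G22730, AT1G22750, AT1G22790, AT1G22800 and AT1G22830). In limma 0 of the 5 passed between mARF10 and ARF10, against 0.408% of all tested probe sets. Their differences ran from -0.04 to 0.15, and 0 had an unadjusted p under 0.05, against 10.9% of all tested probe sets. Between mARF10 and Col-0 their differences ran from -0.06 to 0.15, with 0 called (0.0% of all) and 0 under an unadjusted p of 0.05 (10.7%). None of the 5 had a difference near the -0.45 of GI. Only 99 of 15922 tested probe sets had a lower difference than GI, so nothing is read from this.

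AT4G33980, on the evening-phased list and below the filter, was at 6.50 on Col-0 replicate 2 and at 5.22 or lower on the other Col-0 arrays, against 5.04 to 5.24 in ARF10 and 5.24 to 5.45 in mARF10 seeds. Col-0 replicate 2, the array that stood apart, was thus the highest for this gene and the lowest for HYH (6.72), while GI on it was at 7.35, next to 7.36 on Col-0 replicate 1.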
